A study of Mus musculus with 18 samples.

Results

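The genes described here are 10 genes of regulated exocytosis, the step at which the acinar cells of the lacrimal gland (LG) release the proteins of their secretory vesicles. They comprise the Rab GTPases Rab3d, Rab27a, Rab27b and Rab11a, the SNAREs Vamp8, Vamp2 and Stx3, the syntaxin-binding protein Stxbp2, the motor Myo5c and the Rab27 effector Sytl1. They were selected by gene symbol, with earlier results of these data known, and all 10 were found among the 54232 genes of the count table. Bulk RNA-seq had been made from 1 LG from each of 18 male mice, 3 per strain and age, aged 2 months (2M), 4 months (4M) or 6 months (6M). The diseased strain was NOD.B10Sn-H2b/J (NOD.H-2b), a non-obese diabetic line that carries another haplotype of the major histocompatibility complex and develops a Sjögren-like inflammation of the LG. The control strain was BALB/cJ (BALB/c), which is not the strain in which the congenic line was made, so that strain background and disease cannot be told apart in any comparison between strains.

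In an acinar cell, finished secretory vesicles carry Rab3d and Rab27 on their surface. GTP-bound Rab27 recruits effectors such as Sytl1 that tether the vesicle to the apical membrane, class V myosins such as Myo5c move vesicles and recycling membranes along actin, and Rab11a serves the recycling compartment under the apical membrane. Fusion then takes place when a SNARE on the vesicle, such as Vamp8 or Vamp2, zips together with syntaxin and SNAP proteins on the apical membrane, Stx3 being the main apical syntaxin and Stxbp2 its chaperone.

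Since 4 of the 10 genes (Rab3d, Rab27a, Rab27b and Sytl1) were lower in NOD.H-2b LGs at every age, the bases before their starts are shown where the RefSeq promoter table for GRCm38.p6 held them. It held 8 of the 10 genes, all but Rab27b and Vamp2, and gave 250 bases before and 50 after each start. Bases that lie in an annotated exon were left out. Capitals mark the 6-base words CATATG and CAGCTG, E-boxes of the kind bound by Bhlha15 (MIST1), a transcription factor of secretory cells that is known to act on Rab3d and Rab26. Both words read the same on either strand and cannot overlap each other.

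Rab3d, chr9:21918193-21918433, minus strand: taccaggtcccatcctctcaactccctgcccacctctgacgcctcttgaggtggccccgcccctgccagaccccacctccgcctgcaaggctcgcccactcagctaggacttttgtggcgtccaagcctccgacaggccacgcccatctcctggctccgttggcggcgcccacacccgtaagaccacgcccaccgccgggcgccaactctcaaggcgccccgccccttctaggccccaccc
Rab27a, distal start, chr9:73044560-73044809, plus strand: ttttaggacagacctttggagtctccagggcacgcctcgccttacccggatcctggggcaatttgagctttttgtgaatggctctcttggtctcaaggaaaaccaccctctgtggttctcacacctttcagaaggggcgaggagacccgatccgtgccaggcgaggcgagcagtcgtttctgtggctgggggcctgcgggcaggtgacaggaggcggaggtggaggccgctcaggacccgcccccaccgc
Rab27a, proximal start, chr9:73063898-73064147, plus strand: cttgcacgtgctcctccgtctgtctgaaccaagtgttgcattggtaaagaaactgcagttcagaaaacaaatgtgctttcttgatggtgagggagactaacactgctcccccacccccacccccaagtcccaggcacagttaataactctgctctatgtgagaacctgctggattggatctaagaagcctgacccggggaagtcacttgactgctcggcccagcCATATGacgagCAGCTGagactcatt
Sytl1, chr4:133263114-133263337, minus strand: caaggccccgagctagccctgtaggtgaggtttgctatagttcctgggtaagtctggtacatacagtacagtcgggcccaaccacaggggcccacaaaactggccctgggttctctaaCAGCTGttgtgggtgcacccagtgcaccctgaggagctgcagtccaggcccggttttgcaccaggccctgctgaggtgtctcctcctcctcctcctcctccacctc

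The proximal start of Rab27a had both words, with first bases at -26 and -15 from the start. Sytl1 had CAGCTG at -132, and a further copy at -10 in a stretch that is not shown because it lies in an annotated exon. Neither word occurred in the windows of Rab3d, of the distal start of Rab27a, of Vamp8, Stxbp2, Myo5c or Stx3, and Rab11a had CAGCTG after its start. Of 32851 mouse promoters of this length, 3.91% held CATATG, 16.3% held CAGCTG and 19.8% held either. These matches describe the letters only, and no binding was measured.

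All 10 genes were expressed in every LG. Levels were compared between genes as RPKM (counts per kilobase of merged exons, scaled to library size by TMM, the trimmed mean of M values). Rab3d had the highest RPKM in all 6 groups, with 84.4 ± 0.90 in BALB/c LGs and 61.0 ± 3.45 in NOD.H-2b LGs at 2M (SD, n = 3). Rab27a followed in all 6 groups, with 28.1 ± 0.73 in BALB/c LGs and 23.1 ± 1.3 RPKM in NOD.H-2b LGs at 2M, and Sytl1 and Myo5c came next. Stx3 was lowest in all 6 groups, with 1.19 ± 0.076 RPKM in BALB/c LGs and 1.94 ± 0.11 in NOD.H-2b LGs at 2M, and Rab27b was next to lowest. Stxbp2, Vamp2, Vamp8 and Rab11a lay between, from 12.8 ± 0.24 RPKM for Stxbp2 to 8.61 ± 0.38 for Rab11a in BALB/c LGs at 2M. Within this middle range the order was less firm. The 3 mice of Vamp2 and Vamp8 overlapped in BALB/c at 2M and 4M, and in NOD.H-2b LGs at 2M each of Stxbp2, Vamp8 and Vamp2 overlapped the next in the order, the last of these being followed by Rab11a. At 6M in NOD.H-2b LGs, Sytl1, Myo5c, Vamp2 and Stxbp2 formed a run in which each overlapped the next.

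The total per mouse ranged from 49480781 to 103936830 counts, the largest being BALB/c 6M replicate 1, and the other 17 mice had at most 67138830. The lowest count of any of the 10 genes in any mouse was 303, for Stx3. Of the acinar markers, 6 of 6 were detected in every group. Of the 5 salivary gland markers, Smgc, Bpifa2 and Muc19 had 3 counts or fewer in every mouse. Amy1 was above 3 counts in at least 1 mouse of each group, and Dcpp1 only in NOD.H-2b LGs at 6M. The salivary gland markers summed to at most 1.73 CPM in any LG. Inflammatory cells differed between the strains: all 6 T cell markers and all 6 macrophage markers were higher in NOD.H-2b LGs at each age in edgeR's quasi-likelihood test. Of these, Cd3d and Cd8a had 3 counts or fewer in every BALB/c mouse at 2M, so there they passed the filter on low counts through the NOD.H-2b LGs. The summed T cell markers had 0.159 to 4.40 CPM (counts scaled to library size by TMM, with no length term) in the 9 BALB/c LGs, 7.20 to 25.0 CPM in NOD.H-2b LGs at 2M and 58.2 to 82.6 CPM at 6M. The summed B cell markers had 0.123 to 1.91 CPM in BALB/c LGs, 0.789 to 22.7 CPM in NOD.H-2b LGs at 2M and 181 to 352 CPM at 6M.

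At 2M, 2 of the 10 genes were higher in NOD.H-2b LGs (Stx3 and Rab11a) and 4 were lower (Rab3d, Rab27a, Rab27b and Sytl1), with an adjusted p under 0.05 in edgeR's quasi-likelihood test. Among the 17200 genes tested at 2M, 22.5% were called higher and 17.2% lower. At 4M, 0 were higher and the same 4 genes were lower, against 23.4% of all genes called higher and 19.2% called lower. At 6M, 0 were higher and 5 were lower, Myo5c having joined the other 4, against 28.6% and 25.8%. The genes called lower were thus 4 or 5 of 10, and with so few genes no more is drawn from these shares. A change of at least 2-fold with an adjusted p under 0.05, which defined DEGs here, was reached by 0 of the 10 genes at any age, while 15.8% of all genes met it at 2M, 20.3% at 4M and 24.8% at 6M. The median log2 fold change of the 10 genes moved from -0.07 at 2M through -0.19 at 4M to -0.35 at 6M, and that of all genes tested lay between 0.01 and -0.00.

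**Figure D1:**
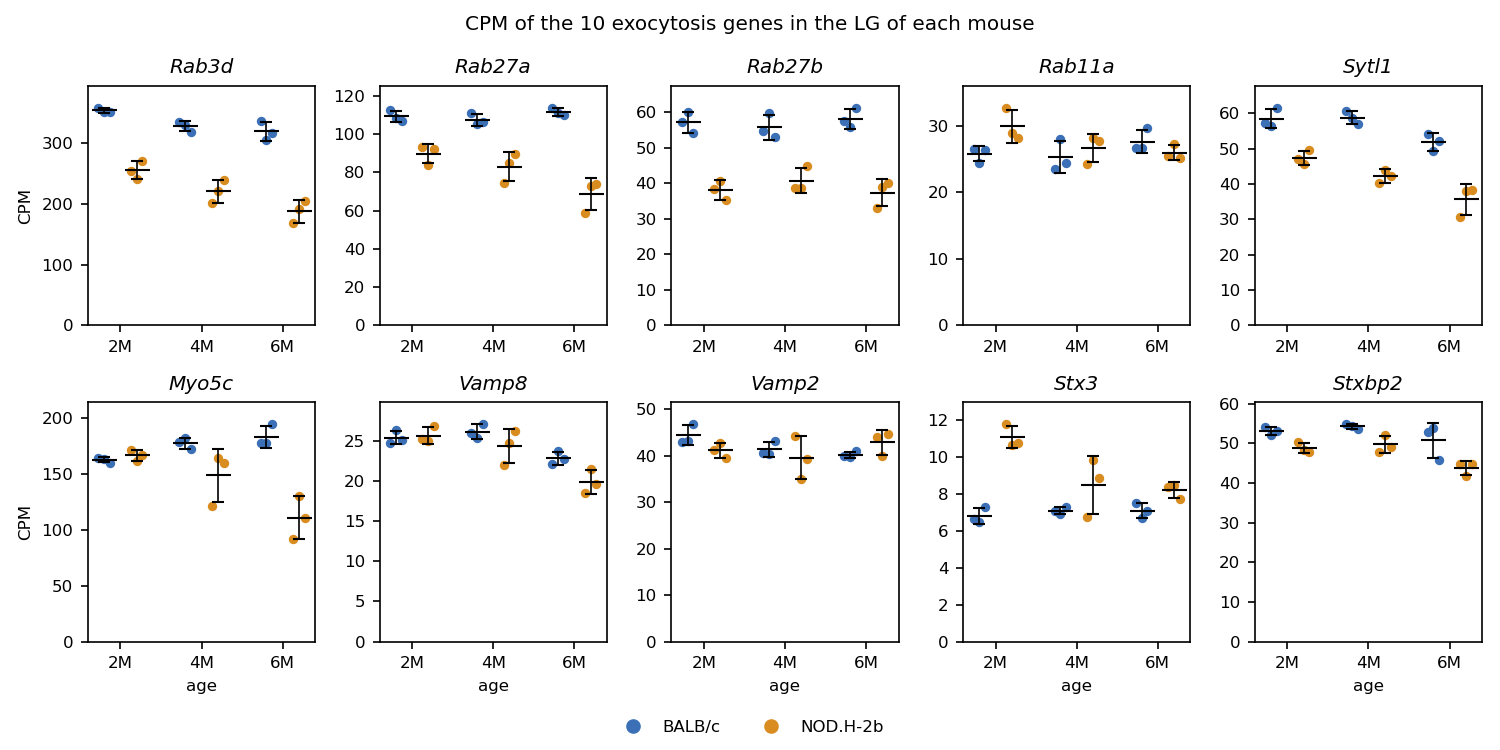
CPM of each of the 10 genes (vertical axes, starting at 0) in the LG of each mouse by age, BALB/c in blue and NOD.H-2b in orange, with the mean (bar) and SD (whiskers) of the 3 mice. Rab3d, Rab27a, Rab27b, Sytl1 and, by a narrower gap, Stxbp2 have all NOD.H-2b mice under all BALB/c mice at each age. Stx3 is highest in NOD.H-2b LGs at 2M, and Myo5c parts the strains at 4M and, by a wider gap, at 6M.

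Rab3d (ENSMUSG00000019066, chromosome 9, 21907491 to 21918192, GRCm38), the Rab of mature secretory granules, had the largest strain difference averaged over the ages. At 2M its CPM was 359, 352 and 352 in BALB/c LGs and 255, 242 and 271 in NOD.H-2b LGs. At 4M the values were 335, 331 and 319 in BALB/c LGs and 201, 221.5 and 239 in NOD.H-2b LGs. At 6M they were 337, 305 and 317 in BALB/c LGs and 168, 192 and 205.5 in NOD.H-2b LGs. Every NOD.H-2b mouse lay under every BALB/c mouse of any age, and the gap to the lowest BALB/c mouse of the same age was widest at 6M. The log2 fold change was -0.43 at 2M (standard error 0.051), -0.57 at 4M (0.077) and -0.73 at 6M (0.097), that is 0.604 of the BALB/c level at 6M. The adjusted p was 5.9e-05, 0.00031 and 0.00015 in turn in edgeR's quasi-likelihood test.

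Rab27a (ENSMUSG00000032202, chromosome 9, 73044854 to 73097629) encodes the Rab that tethers secretory granules, in cytotoxic lymphocytes as well as in glands. Its CPM at 2M was 112, 108.5 and 107 in BALB/c LGs and 93.4, 84.0 and 91.9 in NOD.H-2b LGs. At 6M it was 114, 111 and 110 in BALB/c LGs and 59.0, 72.9 and 74.1 in NOD.H-2b LGs. The strains did not overlap at any age, and BALB/c mice of all ages stayed within 105 to 114 CPM while NOD.H-2b 6M mice were the lowest of all groups. The log2 fold change went from -0.24 at 2M through -0.37 at 4M to -0.66 at 6M (standard errors 0.052, 0.076 and 0.095), with adjusted p of 0.0031, 0.0033 and 0.00025 in edgeR's quasi-likelihood test. Rab27a overlaps an exon of the processed pseudogene Gm27186 on the same strand, whose highest count in any mouse was 22, against at least 4163 for Rab27a.

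Rab27b, the paralogue expressed at the lower level, had 57.1, 60.0 and 54.1 CPM in BALB/c LGs and 38.4, 40.6 and 35.1 CPM in NOD.H-2b LGs at 2M. At 6M it had 57.4, 55.6 and 61.2 CPM in BALB/c LGs and 32.9, 38.8 and 40.1 CPM in NOD.H-2b LGs. Again no NOD.H-2b mouse reached a BALB/c mouse of any age. Unlike Rab3d and Rab27a, its log2 fold change was of similar size at the first and last age, at -0.54 at 2M, -0.45 at 4M and -0.61 at 6M (standard errors 0.064, 0.082 and 0.088; adjusted p of 5.3e-05, 0.0017 and 0.00027 in edgeR's quasi-likelihood test).

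Sytl1 (ENSMUSG00000028860, chromosome 4, 133253090 to 133263113) encodes a synaptotagmin-like effector that binds GTP-bound Rab27. At 2M its CPM was 57.4, 56.5 and 61.5 in BALB/c LGs and 46.9, 45.7 and 49.6 in NOD.H-2b LGs, and at 6M it was 54.2, 49.3 and 52.0 in BALB/c LGs and 30.7, 38.0 and 38.2 in NOD.H-2b LGs. The strains were apart at each age, and the lowest mouse was a NOD.H-2b mouse of 6M. The log2 fold change went from -0.26 at 2M through -0.47 at 4M to -0.51 at 6M (standard errors 0.055, 0.066 and 0.096), with adjusted p of 0.0028, 0.00037 and 0.0014 in edgeR's quasi-likelihood test. These 4 genes, the granule Rabs and a Rab27 effector, were the only members called lower at all 3 ages, and the calls held without any single mouse.

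Rab11a, the Rab of recycling endosomes, did not follow the granule Rabs. It had 24.5 to 26.4 CPM in BALB/c LGs and 28.1 to 32.7 CPM in NOD.H-2b LGs at 2M, without overlap, and its log2 fold change there, 0.26 with a standard error of 0.067 (adjusted p = 0.010 in edgeR's quasi-likelihood test), was the smaller of the 2 rises called. It was no longer called without NOD.H-2b 2M replicate 1, which had the highest value (adjusted p = 0.055), or without BALB/c 2M replicate 2, which had the lowest (adjusted p = 0.059). At 4M and 6M the strains overlapped, with log2 fold changes of 0.08 and -0.05 and 95% intervals from -0.13 to 0.30 and from -0.23 to 0.12. A microRNA gene annotated within an exon of Rab11a had 0 counts in every mouse.

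Myo5c (ENSMUSG00000033590, chromosome 9, 75232020 to 75305451), the class V myosin of exocrine epithelia, was called lower in NOD.H-2b LGs at 6M and not at 2M or 4M. At 2M its CPM was 165, 163.5 and 160 in BALB/c LGs and 172, 162 and 167 in NOD.H-2b LGs. At 4M it was 178, 182 and 172 in BALB/c LGs and 122, 165 and 160 in NOD.H-2b LGs. At 6M it was 178, 178 and 195 in BALB/c LGs and 91.8, 130 and 111 in NOD.H-2b LGs. The strains thus overlapped at 2M and parted at 4M, where 1 NOD.H-2b mouse lay far under the other 2, and at 6M the highest NOD.H-2b mouse was well under the lowest BALB/c mouse. The log2 fold change was 0.08 at 2M (adjusted p = 0.19), -0.25 at 4M (adjusted p = 0.088) and -0.69 at 6M with a standard error of 0.12 (adjusted p = 0.00093) in edgeR's quasi-likelihood test. Without a filter on low counts, Myo5c was also called at 4M (adjusted p = 0.032).

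The vesicle SNAREs had smaller estimates than the granule Rabs. Vamp8 (endobrevin), the granule SNARE of exocrine acinar cells, had 22.1 to 27.1 CPM over the 9 BALB/c LGs and 18.5 to 26.8 CPM over the 9 NOD.H-2b LGs. Its log2 fold change went from 0.06 at 2M through -0.10 at 4M to -0.16 at 6M, and the 95% interval at 6M ran from -0.35 to 0.03, although all 3 NOD.H-2b mice of 6M lay under all 3 BALB/c mice. Vamp2 (synaptobrevin), a vesicle SNARE shared with neurons, had 39.8 to 46.9 CPM in BALB/c LGs and 35.1 to 44.8 CPM in NOD.H-2b LGs, with log2 fold changes of -0.07, -0.06 and 0.13 whose 95% intervals lay within -0.26 and 0.28. Neither gene was called at any single age when the 6 mice of that age were fitted, while in 1 fit of 18 mice Vamp8 was called lower at 6M (-0.20, adjusted p = 0.023). On a scale set by epithelial genes, described further on, both were called lower at 2M and higher at 6M. These intervals leave room for changes smaller than those of Rab3d, and do not show that the strains were alike.

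Stx3 (ENSMUSG00000041488, chromosome 19, 11775118 to 11819403), the syntaxin of the apical membrane, moved the other way. At 2M its CPM was 6.61, 6.44 and 7.27 in BALB/c LGs and 11.8, 10.7 and 10.8 in NOD.H-2b LGs. At 4M it was 7.06, 6.91 and 7.28 in BALB/c LGs and 6.72, 9.81 and 8.85 in NOD.H-2b LGs. At 6M it was 7.50, 6.67 and 7.08 in BALB/c LGs and 8.39, 8.49 and 7.70 in NOD.H-2b LGs. The NOD.H-2b mice of 2M were thus above every other mouse, at 4M NOD.H-2b replicate 1 lay under the BALB/c mice while the other 2 lay above, and at 6M the strains were apart by a small step. The log2 fold change was 0.75 at 2M (standard error 0.087, adjusted p = 4.8e-05), 0.26 at 4M (adjusted p = 0.18) and 0.24 at 6M (adjusted p = 0.084) in edgeR's quasi-likelihood test. Without NOD.H-2b 4M replicate 1, the log2 fold change at 4M was 0.40 and was called (adjusted p = 0.020). With at least 10 counts in every sample, that at 6M was 0.29 and was called (adjusted p = 0.042 in edgeR's quasi-likelihood test). Stxbp2, the partner of Stx3 in glands and of another syntaxin in cytotoxic lymphocytes, had 45.8 to 54.9 CPM in BALB/c LGs and 41.6 to 52.1 CPM in NOD.H-2b LGs, and at each age all 3 NOD.H-2b mice lay under all 3 BALB/c mice. Its log2 fold changes of -0.08, -0.12 and -0.18 were not called at any single age when the 6 mice of that age were fitted (adjusted p of 0.21, 0.16 and 0.085 in edgeR's quasi-likelihood test). At 6M, Stxbp2 was called lower in 1 fit of 18 mice (-0.22, adjusted p = 0.0051) and without BALB/c 6M replicate 3 (-0.26, adjusted p = 0.015).

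**Figure D2:**
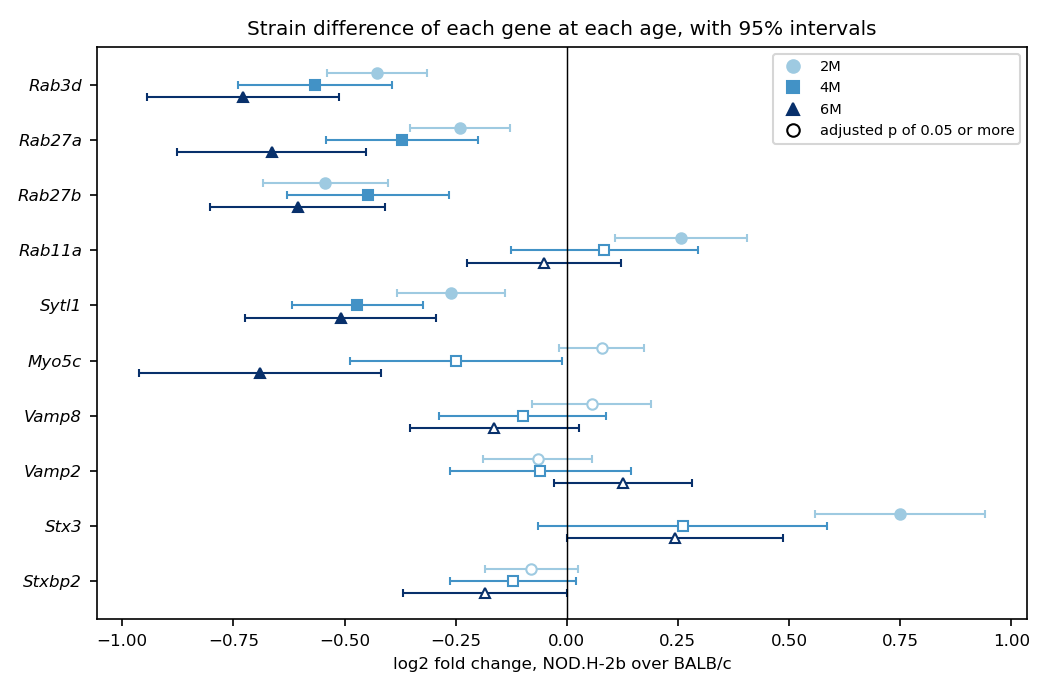
Log2 fold change of NOD.H-2b over BALB/c (horizontal axis) for each gene at 2M, 4M and 6M, with 95% intervals from edgeR's quasi-likelihood fit of 3 against 3 mice; open symbols had an adjusted p of 0.05 or more. Rab3d, Rab27a, Rab27b and Sytl1 lie left of 0 at each age, from -0.24 to -0.73, Myo5c reaches -0.69 at 6M, and Stx3 stands at 0.75 at 2M.

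In a fit of all 18 mice, the strain difference averaged over the 3 ages was called for 8 of the 10 genes, of which 1 was higher and 7 were lower in NOD.H-2b LGs, against 32.5% of all genes called higher and 33.1% called lower. The averaged log2 fold changes of the lower genes were -0.60 for Rab3d, -0.56 for Rab27b, -0.45 for Rab27a, -0.44 for Sytl1, -0.32 for Myo5c, -0.16 for Stxbp2 and -0.10 for Vamp8, and Stx3 was higher by 0.39. Rab11a (0.07, adjusted p = 0.21) and Vamp2 (-0.03, adjusted p = 0.59) were not called. With at least 10 counts in every sample, Rab11a was called higher (0.12, adjusted p = 0.026 in edgeR's quasi-likelihood test). It was also called higher without BALB/c 4M replicate 2 (0.11, adjusted p = 0.037). The call for Vamp8 (adjusted p = 0.046 in edgeR's quasi-likelihood test) was lost in 14 of the 18 fits that left out 1 mouse, with another scaling by DESeq2 size factors (adjusted p = 0.19) and in DESeq2's Wald test (adjusted p = 0.21). Scaled to 40 epithelial genes, 4 genes were called higher and 5 lower on average over the ages, against 8914 and 3199 of the 19117 genes tested. Vamp8 was then called higher (0.11), as were Rab11a (0.28), Vamp2 (0.19) and Stx3 (0.60), and Stxbp2 was not called (0.055, adjusted p = 0.35).

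Whether the strain difference changed with age was asked by taking the difference at 6M minus that at 2M in the same fit. It was called for 3 of the 10 genes, all in the negative direction, against 16.1% of all genes. None of the 3 calls held when counts were scaled to 40 epithelial genes, where Rab27a had 0.15, Stx3 0.078 and Myo5c -0.20, and where 7 other members were called, all in the positive direction. Over all genes, that scale gave 8424 positive and 181 negative calls, against 1345 and 1738 with TMM. Myo5c had the largest change, with -0.76 on the log2 scale (standard error 0.15, adjusted p = 0.0042), and Rab27a had -0.42 (standard error 0.11, adjusted p = 0.019 in edgeR's quasi-likelihood test). For Stx3, whose level at 2M was higher in NOD.H-2b LGs, the change was -0.50 (standard error 0.16, adjusted p = 0.041). Without NOD.H-2b 2M replicate 1, Myo5c alone was called, the adjusted p being 0.051 for Rab27a and 0.10 for Stx3. The call for Stx3 held in 11 of the 18 fits that left out 1 mouse and was lost without a filter on low counts (adjusted p = 0.070). With the replicate block, Stx3 had an adjusted p of 0.050 and was not called. For Rab3d the change was -0.29 (adjusted p = 0.066) and for Rab27b -0.06 (adjusted p = 0.79), with a 95% interval from -0.30 to 0.19.

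Steps between neighbouring ages were then compared within each strain. From 2M to 4M, 0 of the 10 genes were called in BALB/c LGs, where 11.1% of all genes were called, and 0 in NOD.H-2b LGs, where 15.8% were called. From 4M to 6M, 0 were called in BALB/c LGs and 0 in NOD.H-2b LGs, at 0.307% and 0.00555% of all genes. At an unadjusted p under 0.05, in the same order of steps, that is 2M to 4M in BALB/c and NOD.H-2b LGs and then 4M to 6M, 2, 3, 2 and 2 of the 10 genes passed in edgeR's quasi-likelihood test, against 4416 of 16639, 5692 of 17763, 2583 of 16622 and 2490 of 18026 of all genes, and DESeq2's Wald test called 0 at each step. In NOD.H-2b the largest estimates were Stx3 from 2M to 4M (log2 fold change -0.39, adjusted p = 0.091) and Myo5c from 4M to 6M (-0.41, adjusted p = 0.34). In a fit of all 18 mice, which estimates the spread over all groups, the step from 2M to 4M in NOD.H-2b LGs was called for Stx3 and Rab3d, and that from 4M to 6M for Myo5c and Vamp8, against 22.7% and 3.91% of all genes in that fit.

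Ratios of paralogues within a mouse do not depend on scaling to other genes. The log2 ratio of Rab27a to Rab27b, taken on RPKM, was 2.40 ± 0.072 in BALB/c LGs and 2.70 ± 0.17 in NOD.H-2b LGs at 2M (SD, n = 3), and no NOD.H-2b mouse overlapped BALB/c, which had 2.31 to 2.44. At 6M the ratio was 2.40 ± 0.086 in BALB/c LGs and 2.34 ± 0.035 in NOD.H-2b LGs. Averaged over the ages, NOD.H-2b was higher by 0.11, with p = 0.115 in a two-sided exact permutation test that exchanged strain labels within each age over 8000 arrangements. The difference was 0.30 at 2M, where 3 against 3 mice cannot give a p under 0.1 and gave 0.1. The log2 ratio of Vamp8 to Vamp2 had group means from -0.10 to 0.06 in 5 of the 6 groups and was -0.39 ± 0.19 in NOD.H-2b LGs at 6M (SD, n = 3), and the averaged strain difference was -0.07 (p = 0.406, exact permutation test). At 6M alone it was -0.29 without overlap between the strains, again at the smallest p of 0.1.

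**Figure D3:**
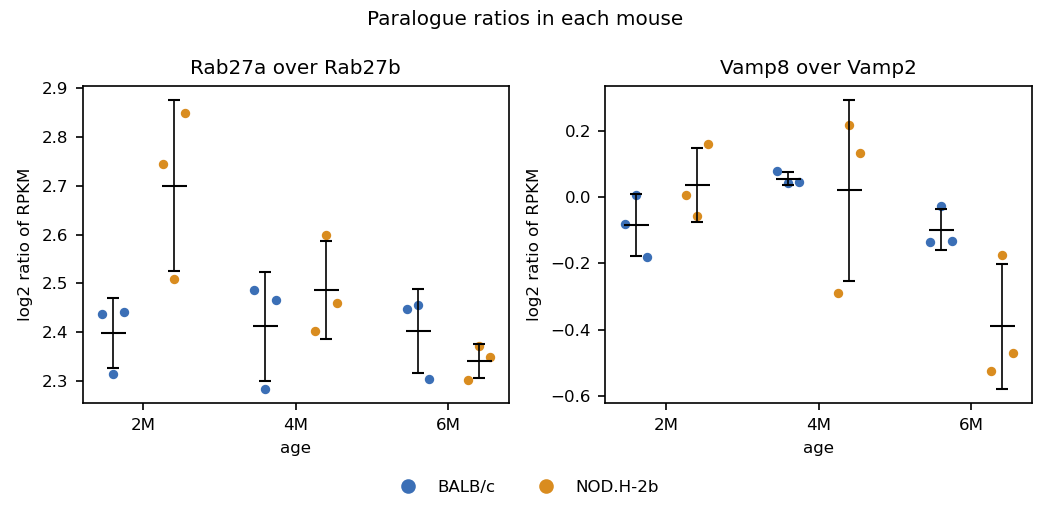
Log2 ratio of RPKM within each mouse (vertical axes) for Rab27a over Rab27b and for Vamp8 over Vamp2 by age, BALB/c in blue and NOD.H-2b in orange, with the mean (bar) and SD (whiskers) of 3 mice. Rab27a over Rab27b is highest in NOD.H-2b LGs at 2M, with a mean of 2.70, and Vamp8 over Vamp2 is lowest in NOD.H-2b LGs at 6M, with a mean of -0.39.

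In a whole gland, fewer cells of a type and less RNA per cell cannot be told apart. Markers of several cell types also differed between the strains, in both directions. The list of 6 acinar markers held Ltf (lactotransferrin), which LG ducts also express, and Pigr, both called higher at 2M. Of the 6, 2 were lower in NOD.H-2b LGs at 2M and 2 were higher, against 3 lower and 0 higher at 4M and 4 lower and 0 higher at 6M, with a median log2 fold change of -0.11, -0.35 and -0.38. Their summed level was 1928 to 2107 CPM in BALB/c LGs and 2181 to 2670 CPM in NOD.H-2b LGs at 2M, and 1691 to 2195 against 1372 to 1575 CPM at 6M. Bhlha15, the secretory cell factor named above, had log2 fold changes of -0.18 (adjusted p = 0.052), -0.41 (adjusted p = 0.029) and -0.61 (adjusted p = 0.014) at 2M, 4M and 6M in edgeR's quasi-likelihood test. Chrm3, the muscarinic receptor that triggers secretion, was lower at each age, with -0.34, -0.62 and -0.64. The part of these changes in the results above was not tested.

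Cytotoxic lymphocytes use Rab27a and Stxbp2 for their own granules, so the immune markers are given beside these results, and their part in them was not tested. The summed markers of cytotoxic lymphocytes had 0.123 to 2.40 CPM over the BALB/c LGs and 3.25 to 10.1 CPM over the NOD.H-2b LGs, with 6 of 6 markers above 3 counts in at least 1 mouse of each NOD.H-2b group, and Prf1 and Gzmk at 3 counts or fewer in BALB/c LGs at 2M. Macrophage markers summed to 31.3 to 77.0 CPM in BALB/c LGs and 117 to 223 CPM in NOD.H-2b LGs. Plasma cell markers summed to 224 to 489 and 236 to 867 CPM, mast cell markers to 16.2 to 25.3 and 21.7 to 34.6 CPM (though 4 of the 5 tested were lower in NOD.H-2b LGs at 4M and at 6M), and adipocyte markers to 2.24 to 5.10 and 1.16 to 4.93 CPM. Skeletal muscle markers summed to at most 1.54 CPM in any LG, with Myh4 at 3 counts or fewer in every mouse.

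To set the 10 genes against the epithelium rather than against all RNA, the counts were also scaled to the geometric mean of 40 genes of epithelial structure, such as keratins and junction proteins. On this scale the median of all genes moved to -0.36 at 2M, 0.18 at 4M and 0.40 at 6M, and changes are to be read relative to that shift. Calls over all genes split into 2305 higher and 8771 lower at 2M, 4536 and 1379 at 4M, and 8670 and 1494 at 6M, against 3871 and 2966, 4143 and 3402, and 5078 and 4575 when scaled to all genes by TMM. The list itself was mixed. At 2M, 17 of the 40 genes were higher and 5 lower, with a median log2 fold change of 0.14, and Cldn4, named after its value was seen, was higher by 4.72. At 4M, 1 was higher and 19 were lower (median -0.28), and at 6M, 3 were higher and 27 lower (median -0.41).

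On the epithelial scale Rab3d stayed lower and called at each age, with log2 fold changes of -0.80, -0.39 and -0.33. Rab27a (-0.61, -0.20 and -0.27), Rab27b (-0.91, -0.27 and -0.21) and Sytl1 (-0.63, -0.30 and -0.11) kept their direction, but Rab27a was not called at 4M, and Rab27b and Sytl1 were called only at 2M. Stx3 was called higher at 2M and 6M, with 0.38 and 0.65, and missed the threshold at 4M (0.43, adjusted p = 0.054 in edgeR's quasi-likelihood test). Myo5c was called lower at 2M and 6M, with -0.29 and -0.30. Vamp8, Vamp2 and Rab11a changed sides between the ages on this scale. Vamp2 had -0.43 at 2M and 0.54 at 6M, Vamp8 -0.31 and 0.24, and Rab11a -0.11 and 0.35. In calls, 1 gene was higher and 8 were lower at 2M, 0 and 1 at 4M, and 4 and 3 at 6M, the 4 higher at 6M being Rab11a, Vamp8, Vamp2 and Stx3. Against the TMM scale, the direction turned at 2M for Rab11a, Vamp8 and Myo5c, at 4M for Vamp8, Vamp2 and Stxbp2, and at 6M for Rab11a, Vamp8 and Stxbp2, while the 4 genes lower at every age and Stx3 kept their direction at all 3 ages on both scales. With the median of the list subtracted instead, a value that carries no test, Rab3d had -0.56, -0.29 and -0.32. At 2M, Rab11a then had 0.12, Myo5c -0.06 and Vamp8 -0.08, so that for Rab11a the direction at 2M was not turned and for the other 2 the shift was smaller than with the geometric mean.

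**Figure D4:**
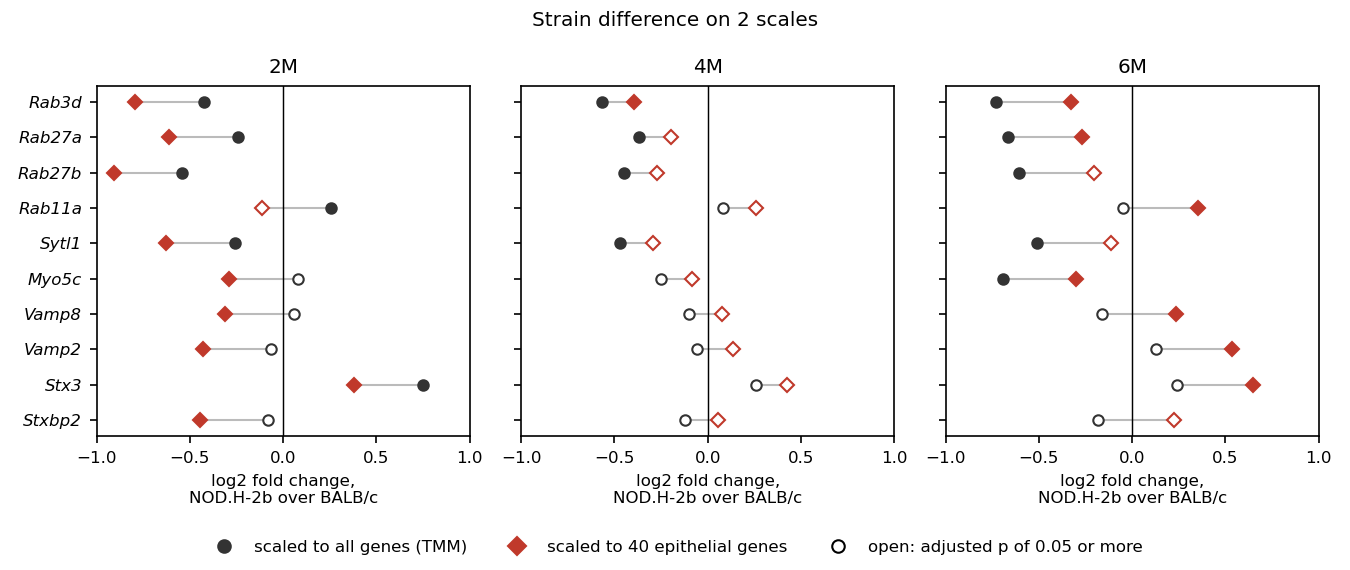
Log2 fold change of NOD.H-2b over BALB/c (horizontal axes) of each gene at 2M, 4M and 6M, scaled to all genes by TMM (black circles) and to 40 epithelial genes (red diamonds); open symbols had an adjusted p of 0.05 or more. The epithelial scale moves all genes to the left at 2M and to the right at 4M and 6M, and Rab3d, Rab27a, Rab27b and Sytl1 remain left of 0 in each panel.

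The gene whose pattern over the 18 mice was closest to that of Rab3d was Rab4a, a Rab of early endosomes, with a root mean square difference of 0.055 on the scale of centred log2 CPM. The next were Idh2, the mitochondrial isocitrate dehydrogenase, with 0.064, and Snd1, a nuclease-domain protein, with 0.067. The median over the 7638 genes compared was 0.308. No such search was made for a gene that rose, since none of the 10 was called higher at all 3 ages.

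The wider machinery was described by 81 other genes of vesicle traffic in 5 lists. At 2M, 74 had enough counts and 24 of them were called higher and 14 lower. At 4M, 21 of 75 were higher and 18 lower, and at 6M, 20 of 75 were higher and 31 lower. For these and the single lists, the shares of all genes called higher and lower were 22.5% and 17.2% at 2M, 23.4% and 19.2% at 4M, and 28.6% and 25.8% at 6M. The median log2 fold change was 0.04, 0.01 and -0.09, close to the 0.01, 0.00 and -0.00 of all genes tested. Unlike the 10 genes, some of these passed 2-fold, with 6 of 74 at 2M, 10 of 75 at 4M and 12 of 75 at 6M. Of all genes tested, 15.8%, 20.3% and 24.8% did so at the 3 ages.

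Among 16 other Rab GTPases, 5 of 13 tested were higher and 1 lower at 2M, and 3 of 14 were higher and 5 lower at 6M. Rab26, which sits on secretory granules, was higher at each age, with 8.57 ± 0.18 CPM in BALB/c LGs and 16.0 ± 1.6 in NOD.H-2b LGs at 2M (SD, n = 3) and log2 fold changes of 0.94, 1.64 and 0.79 (adjusted p of 8.0e-06, 2.8e-05 and 0.00017 in edgeR's quasi-likelihood test). Rab26 therefore moved opposite to Rab3d in the same LGs. Rab8b, of post-Golgi traffic, was higher by 0.99, 0.72 and 0.85. Rab4a was lower by -0.45, -0.56 and -0.71, from 41.8 ± 0.60 CPM in BALB/c LGs to 25.0 ± 3.1 in NOD.H-2b LGs at 6M.

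Of 21 Rab effectors, exchange factors and motors, 6 were higher and 6 lower at 2M, 7 and 9 at 4M, and 6 and 11 at 6M. Unc13d, the Rab27 effector of blood cell granules, rose from 0.343 ± 0.20 to 2.47 ± 1.0 CPM at 2M and from 0.516 ± 0.10 to 10.2 ± 1.7 CPM at 6M, with log2 fold changes of 2.88, 3.29 and 4.30 over the ages. Sytl2, a paralogue of Sytl1, was higher by 2.26, 1.58 and 3.10, though at a low level of 2.51 ± 0.78 CPM in NOD.H-2b LGs at 6M. Rims2, a Rab3 effector known from nerve terminals, had 41 to 105 counts per mouse in BALB/c LGs and 2 to 10 counts in NOD.H-2b LGs. Of these Rab27 effectors, Sytl1 was thus lower at every age and Unc13d and Sytl2 higher. Unc13d and Sytl2 were named for the size of their change. In BALB/c LGs at 2M they had only 9 to 31 and 6 to 22 counts per mouse. Other effectors of the list are not named, so nothing is drawn about effectors in general.

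Of 20 other SNAREs, 4 were higher and 2 lower at 2M, 6 and 3 at 4M, and 6 and 7 at 6M, with 19 tested. Stx11, the syntaxin of cytotoxic lymphocytes and other immune cells, had 0.0850 ± 0.045 CPM in BALB/c LGs and 1.73 ± 1.0 CPM in NOD.H-2b LGs at 2M, and 0.216 ± 0.085 against 4.44 ± 1.4 CPM at 6M. At 2M it had 2 to 7 counts per mouse in BALB/c LGs, so there it passed the filter on low counts through the NOD.H-2b LGs. It is among the 4 SNAREs called higher at 2M. Stx4a, a basolateral syntaxin, was higher by 0.34, 0.75 and 0.93 on the log2 scale, and this difference grew by 0.60 from 2M to 6M (adjusted p = 0.015 in edgeR's quasi-likelihood test). Vamp4, of the trans-Golgi network, was lower by -0.57, -0.46 and -0.52.

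Of 16 proteins that regulate fusion, 5 of 13 tested were higher and 3 lower at 2M, and 4 were higher and 6 lower at 6M. Syt11, a synaptotagmin that does not bind calcium, was higher by 2.22, 2.80 and 2.57 at no more than 5.89 CPM in any LG. Cadps2, which primes dense-core vesicles, had 60.1 ± 1.5 CPM in BALB/c LGs and 39.4 ± 3.7 CPM in NOD.H-2b LGs at 2M, and 66.7 ± 1.1 against 34.4 ± 2.8 CPM at 6M, and its log2 fold change went from -0.57 to -0.92 (change -0.34, adjusted p = 0.034 in edgeR's quasi-likelihood test). Doc2b, a calcium sensor for exocytosis, was lower by -0.37, -0.68 and -0.91, with a wide spread in NOD.H-2b LGs at 6M (44.7 to 99.3 CPM). Of the 8 exocyst subunits, Exoc6 was higher at each age (0.50, 0.55 and 0.81) and Exoc7 lower (-0.56, -0.49 and -0.54), and the median of the complex stayed between 0.11 and 0.18.

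**Figure D5:**
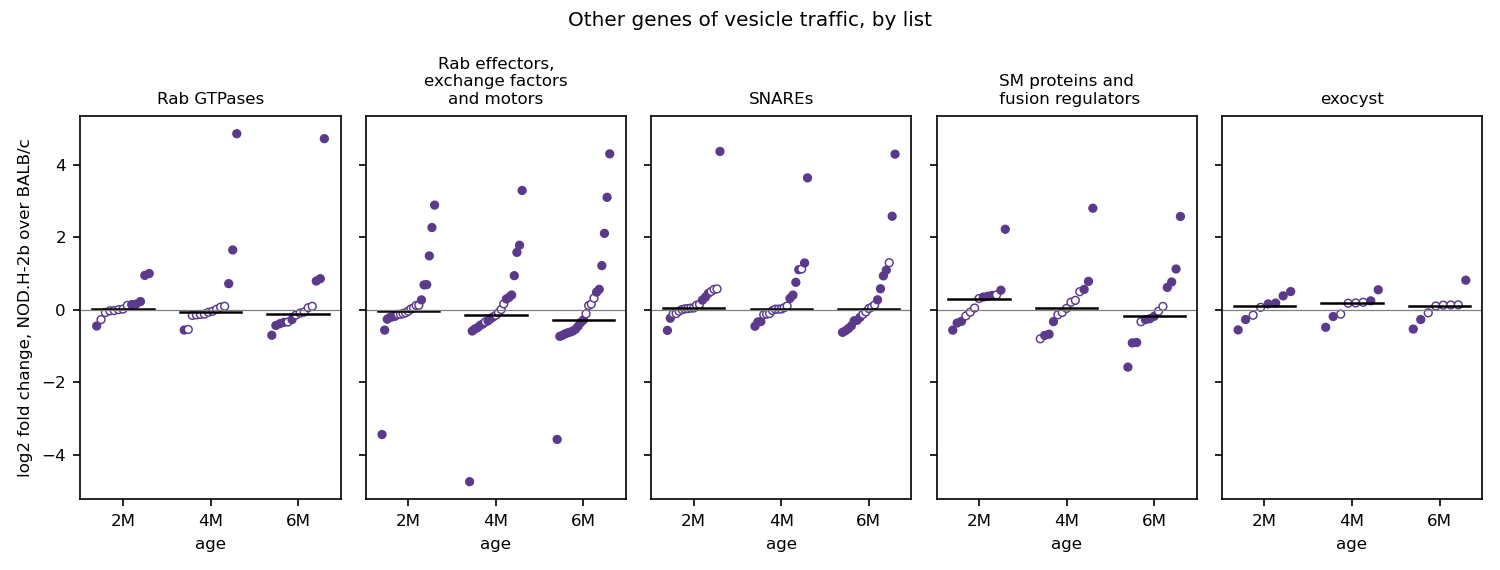
Log2 fold change of NOD.H-2b over BALB/c (vertical axis) of each tested gene in 5 lists of vesicle traffic at 2M, 4M and 6M, with filled symbols for an adjusted p under 0.05 and bars at the medians. Most genes lie near 0, the medians run from -0.29 to 0.30, and single genes such as Unc13d, Stx11 and Syt11 stand above 2. Stx11 had 2 to 7 counts per mouse in BALB/c LGs at 2M, where it passed the filter on low counts through the NOD.H-2b LGs. The lowest point at each age is Rims2, which had 2 to 10 counts per mouse in NOD.H-2b LGs, so that its fitted value depends on the prior count.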

How the data were processed

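RNA-seq was made from LGs of 18 male mice, 3 per strain and age. According to the submitters' notes and the study's methods, ribosomal RNA was depleted, 75-base paired-end reads were trimmed with cutadapt, checked with FastQC, aligned to GRCm38 with STAR and counted per gene with HTSeq. The annotation release and the strand setting are not given in the sources used here. The deposited raw counts per gene were analysed. The log2 values that the authors also deposited are log2 of the count divided by a DESeq2 size factor plus 1, and they were only checked for their unit.

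Groups were taken from the labels. Counts were scaled by TMM, genes with low counts were removed with filterByExpr, and strains or ages were compared with edgeR's quasi-likelihood test (edgeR 4.0.16, R 4.3.3), adjusted by Benjamini-Hochberg over all genes tested, at a threshold of 0.05. Strain at an age and age steps were fitted on the 6 mice compared, and the average over ages and the strain by age difference on all 18. Each mouse is 1 replicate, so p-values measure the spread between mice. RPKM used the merged exon length from GENCODE M21. Paralogue ratios were compared by exact permutation within ages. The code was tested on simulated counts.

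The 10 genes and all lists were chosen with earlier results of these data known. All 10 genes are named. Of each pathway list, at most 3 genes called at all 3 ages in 1 direction are named, by the largest mean absolute log2 fold change, together with the 3 genes most like Rab3d. Alternatives were other scalings (DESeq2 size factors, upper quartile, 40 epithelial genes), no filter, at least 10 counts in every sample, DESeq2 1.42.0, the replicate number as a block, 1 fit of 18 mice and leaving out each mouse. Subtracting the median of the epithelial list was added after the data were seen.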

Additional observations from a re-analysis of the deposited data

Results flagged for a closer look

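The difference between the strains was called as changing with age for 5 of the genes named in the text, against 16.1% of all genes. This was edgeR's quasi-likelihood test of the difference at 6M minus that at 2M over all 18 mice. The pathway genes among the 5 had been named for their calls between the strains at all 3 ages. Myo5c had -0.76 on the log2 scale (standard error 0.15, adjusted p = 0.0042), the strains being close at 2M and apart at 6M. Rab27a had -0.42 (standard error 0.11, adjusted p = 0.019), its deficit in NOD.H-2b being larger at 6M. Stx3 had -0.50 (standard error 0.16, adjusted p = 0.041), its excess in NOD.H-2b being larger at 2M. Of the 18 fits that left out 1 mouse, the call held in 17 for Rab27a and in 11 for Stx3. The Stx3 call was also lost without a filter on low counts and with the replicate block. Stx4a had 0.60 (standard error 0.15, adjusted p = 0.015), and Cadps2 had -0.34 (standard error 0.11, adjusted p = 0.034). Scaled to the 40 epithelial genes, the change was 0.15 for Rab27a, 0.08 for Stx3 and -0.20 for Myo5c, and none of these 3 was called. The median change over all genes was 0.55 on that scale, against -0.03 with TMM. Stx4a and Cadps2 were not examined under that scale or any other alternative.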

How the results depend on the processing

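The calls of Rab3d, Rab27a, Rab27b and Sytl1 between the strains at each age held under every alternative run other than the epithelial scale. On that scale the number of the 10 genes called was 9 in place of 6 at 2M (1 higher and 8 lower), against 64.4% of all genes. It was 1 in place of 4 at 4M (33.4% of all genes) and 7 in place of 5 at 6M (4 higher and 3 lower, 57.3% of all genes). For the step from 2M to 4M in BALB/c it was 7 in place of 0. Of all genes, 38.6% were called at that step, 5797 lower and 619 higher. For the strain by age difference it was 7 in place of 3, against 45% of all genes. Among differences called on the TMM scale, the epithelial scale or both, directions turned on the epithelial scale at 2M for Rab11a (-0.11), Vamp8 (-0.31) and Myo5c (-0.29), and at 6M for Rab11a (0.35) and Vamp8 (0.24). In the strain by age difference they turned for Rab3d (0.28), Rab27a (0.15), Rab27b (0.51), Rab11a (0.27), Vamp8 (0.36), Stx3 (0.078), Stxbp2 (0.48) and Sytl1 (0.33). Without a call on either scale, directions also turned at 4M for Vamp8, Vamp2 and Stxbp2 and at 6M for Stxbp2. The cause was not tested. In NOD.H-2b the step from 2M to 4M had 1 call without a filter (Stx3) and 2 in 1 fit of 18 mice, and that from 4M to 6M had 2 in 1 fit of 18 mice. The shares of all genes called were 10.3%, 22.7% and 3.91%, in that order. Leaving out 1 mouse gave 0 to 1 calls for the step from 2M to 4M in NOD.H-2b (Rab3d without NOD.H-2b 4M replicate 3) and 1 to 5 for strain by age, with 1 without NOD.H-2b 2M replicate 1 and 5 without BALB/c 4M replicate 3. The fits named here called 14.6%, 8.76% and 17.1% of all genes, in that order. At single ages the log2 ratio of Rab27a to Rab27b differed by -0.061 at 6M and that of Vamp8 to Vamp2 by 0.12 at 2M. BALB/c and NOD.H-2b mice of the same age and replicate number did not deviate together (Pearson's r from -0.06 to 0.10 across genes). Pairing of mice across ages was not examined, and a shared batch was not tested. With the replicate block, 1 gene was called from 4M to 6M in NOD.H-2b (Myo5c, -0.41, adjusted p = 0.027 in edgeR's quasi-likelihood test), against 3.3% of all genes at that step. Stx3 lost its strain by age call with the block. Vamp8, Vamp2 and Stxbp2 were not called at single ages when the 6 mice of that age were fitted. With 3 mice per group, this does not show that the strains were alike.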
